A study of Homo sapiens with 30 samples.

Results

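The 7 genes described here encode the cyclin-dependent kinase (CDK) inhibitors, which were chosen by symbol: CDKN1A, CDKN1B and CDKN1C of the CIP/KIP family and CDKN2A, CDKN2B, CDKN2C and CDKN2D of the INK4 family. All 7 were found, among 18132 entries of the RNA-seq table and among 20582 entries of the PRO-seq table. The cells were G401, an established human malignant rhabdoid tumour line, and its derivative DTMYC. DTMYC cells carry a lentiviral MYC fused at its N-terminus to an HA tag and the degradable FKBP12F36V module, and their endogenous MYC was removed with CRISPR-Cas9. Parental G401 cells keep their own, untagged MYC. dTAG47, a compound that brings FKBP12F36V fusions to the ubiquitin system for degradation, was given at 500 nM, and DMSO was its solvent control. RNA-seq after 24 h covered DTMYC cells in dTAG47 and in DMSO and parental cells in dTAG47 and in DMSO, with 3 libraries per group. In DTMYC cells, PRO-seq after 4 h covered 2 dTAG47 and 2 DMSO libraries, ATAC-seq after 24 h covered 3 and 3, and MYC ChIP-seq after 4 h covered 3 dTAG47 and 2 DMSO libraries. The labels do not say whether DTMYC is a single clone, and they do not say that replicates were separate cultures, so a p-value here covers the variation among libraries, which may be technical. In bulk RNA, fewer cells of a kind and less RNA per cell cannot be told apart.

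CDK inhibitors hold cells in G1 by blocking the kinases that phosphorylate the retinoblastoma protein. INK4 proteins bind CDK4 and CDK6 and keep them from cyclin D, whereas CIP/KIP proteins bind cyclin and kinase together and act most strongly on CDK2. MYC is known to repress several of these genes. The best studied route goes through the zinc finger protein MIZ1 (gene ZBTB17) at the promoters of CDKN2B and CDKN1A, and repression of CDKN2C by MYC has also been described. In rhabdoid tumours, loss of the SWI/SNF subunit SMARCB1 is the defining lesion, and re-expression of SMARCB1 is known to induce CDKN2A.

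The promoters of CDKN2B and CDKN2C, the members whose mRNA rose after dTAG47, are shown as 300 bases of hg19 from 250 before to 50 from the transcript start of the PRO-seq table onward, 5′ to 3′ on the gene's strand. Capitals mark the GC box GGGCGG, searched on both strands with overlapping matches counted, an element that SP1-type factors can bind. CDKN2B is at chr9:22009263-22009562 (minus strand) and CDKN2C at chr1:51434117-51434416 (plus strand).
CDKN2B: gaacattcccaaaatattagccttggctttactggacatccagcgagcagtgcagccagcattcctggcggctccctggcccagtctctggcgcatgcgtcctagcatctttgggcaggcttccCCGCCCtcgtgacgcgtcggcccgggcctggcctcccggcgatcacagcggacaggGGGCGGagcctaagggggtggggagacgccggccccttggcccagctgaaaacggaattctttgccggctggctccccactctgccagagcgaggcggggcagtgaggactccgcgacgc
CDKN2C: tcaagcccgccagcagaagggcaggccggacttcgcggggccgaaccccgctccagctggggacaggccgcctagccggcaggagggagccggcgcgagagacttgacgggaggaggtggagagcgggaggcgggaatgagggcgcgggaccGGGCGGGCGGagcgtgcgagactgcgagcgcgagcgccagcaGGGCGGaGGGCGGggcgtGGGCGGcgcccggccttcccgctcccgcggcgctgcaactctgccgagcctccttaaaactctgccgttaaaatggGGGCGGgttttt
The GC box occurred 2 times in the CDKN2B window and 6 times in the CDKN2C window. In the windows of the other members it occurred 0 times for CDKN1A, 1 for CDKN1B, 5 for CDKN1C, 4 for CDKN2A and 3 for CDKN2D. Of 20470 promoters of this length, 56.3% held at least 1, and the share with more copies was not computed. The windows of CDKN2B and CDKN2C were 66.3% and 73% G and C, against a median of 61.7% over all promoters. Those of the other members ranged from 58.7% (CDKN1A) to 77% (CDKN2A). The E-box CACGTG, the site that MYC binds with MAX, was found in neither window, and 8.34% of all promoters held it. Within 1000 bases of any annotated start site, CDKN2C had 3 copies of CACGTG, CDKN2A 1 and CDKN2D 1. Genes with start sites far apart, such as CDKN2C, were searched over more bases, and the share over all genes was not computed.

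RNA-seq libraries held 27854207 to 54633745 counts in genes, and PRO-seq libraries held 18209879 to 23256313 counts in gene bodies and 1216928 to 1632084 in promoter-proximal regions. The depth behind the peak lists is unknown. SMARCB1 had 0 and 0 gene body counts in dTAG47 and 0 and 2 in DMSO, and its mRNA was not analysed here. MYC mRNA averaged 1410 ± 65 CPM (counts scaled to library size) in dTAG47-treated and 1366 ± 46 CPM in DMSO-treated DTMYC cells, against 235 ± 7.8 and 235 ± 28 CPM in parental cells (SD, n = 3 each), and dTAG47, which acts on the protein, did not pass the test for it in either line. The 7 kidney epithelial markers summed to 4612 to 6569 CPM over the 12 libraries, nearly all of it from the keratins KRT8 (3542 to 5003 CPM) and KRT18 (995 to 1605 CPM). CDH16 was at most 0.137 CPM, PAX8 at most 1.10 CPM with 3 parental libraries at 0, EPCAM at most 2.42 CPM and CDH1 at most 5.18 CPM. LHX1, also on the epithelial list, was at 11.7 to 20.3 CPM. The mesenchymal marker VIM was at 609.7 to 757.8 CPM. CDH2, listed with it, was at 0 CPM in DTMYC cells and at most 0.626 CPM in parental cells. The 3 haematopoietic markers in the table, of 4 listed, summed to at most 0.527 CPM. The 3 neuronal markers in the table, of 4 listed, summed to 6.02 to 7.74 CPM. Parental DMSO library 3 stood apart: its mean correlation with the rest of its group was 0.982, against 0.988 to 0.996 for the other libraries. Calls on the 7 members that change without it are given both ways, whereas neighbours and pathway lists were tested only with it.

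In DTMYC cells 24 h of dTAG47 raised the mRNA of the INK4 members CDKN2B and CDKN2C, and no member fell past the threshold. CDKN2B, which encodes p15INK4b, the member best known for its induction by TGF-beta, had 2.31, 2.41 and 3.02 CPM in dTAG47, against 1.39, 1.44 and 1.55 CPM in DMSO. Every treated library lay above every DMSO library, and the raw counts behind these values were 67, 81 and 85 against 46, 42 and 54. The fitted log2 change was 0.82 ± 0.16 (SE), a 1.76-fold rise (adjusted p = 0.0095, edgeR quasi-likelihood test). CDKN2C, which encodes p18INK4c, had 33.2, 36.0 and 36.2 CPM in dTAG47, against 25.7, 25.9 and 24.8 CPM in DMSO. These groups also did not overlap, and the log2 change was 0.47 ± 0.08, a 1.38-fold rise (adjusted p = 0.00671). The 2 members called stand against 4.27% of 13401 tested genes called higher, 4.44% called lower and 8.71% called in either direction. Both calls held in all 18 alternatives run, with adjusted p up to 0.0496 for CDKN2B and up to 0.0441 for CDKN2C.

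The other 5 members did not pass the threshold in this comparison. CDKN1B, which encodes p27, the inhibitor that SKP2 sends to degradation, had 60.0, 58.7 and 59.4 CPM in dTAG47, against 48.4, 54.3 and 49.0 CPM in DMSO (log2 change 0.23 ± 0.10, adjusted p = 0.179). CDKN1A, which encodes the p53-induced p21, had 228, 234 and 216 CPM in dTAG47, against 215, 202 and 210 CPM in DMSO (0.11 ± 0.09, adjusted p = 0.498). In both genes every treated library lay above every DMSO library, but in CDKN1A the lowest treated and the highest DMSO library nearly met. CDKN2A, whose entry joins the transcripts of p16INK4a and of the MDM2-binding p14ARF, had 16.4, 15.6 and 16.2 CPM in dTAG47, against 18.3, 18.6 and 19.0 CPM in DMSO (-0.22 ± 0.13, adjusted p = 0.351). It was the only member with all treated libraries below all DMSO libraries. With CDKN2B and CDKN2C, 4 of 7 members had all treated libraries higher, against 25.2% of all genes tested, and 1 of 7 had all lower, against 20%. CDKN2D, which encodes p19INK4d, overlapped between the groups, with 5.62, 6.16 and 4.90 CPM in dTAG47 and 4.64, 5.13 and 4.85 CPM in DMSO (0.19 ± 0.13, adjusted p = 0.399). CDKN1C, which encodes the imprinted inhibitor p57, had few reads in DTMYC cells and its groups overlapped, with 26, 23 and 12 counts in dTAG47 and 17, 12 and 11 counts in DMSO (0.70 ± 0.36, adjusted p = 0.270). The median log2 change was 0.23 over the 7 members and 0.03 over all genes tested.

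The libraries that shared the fit mattered for the members near the threshold. When only the 6 DTMYC libraries were fitted, 4 members were called, because CDKN1B (0.20, adjusted p = 0.0127) and CDKN2A (-0.24, adjusted p = 0.0092) joined. The same 4 were called without parental DMSO library 3 (CDKN1B adjusted p = 0.0212, CDKN2A adjusted p = 0.0397).

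**Figure D1:**
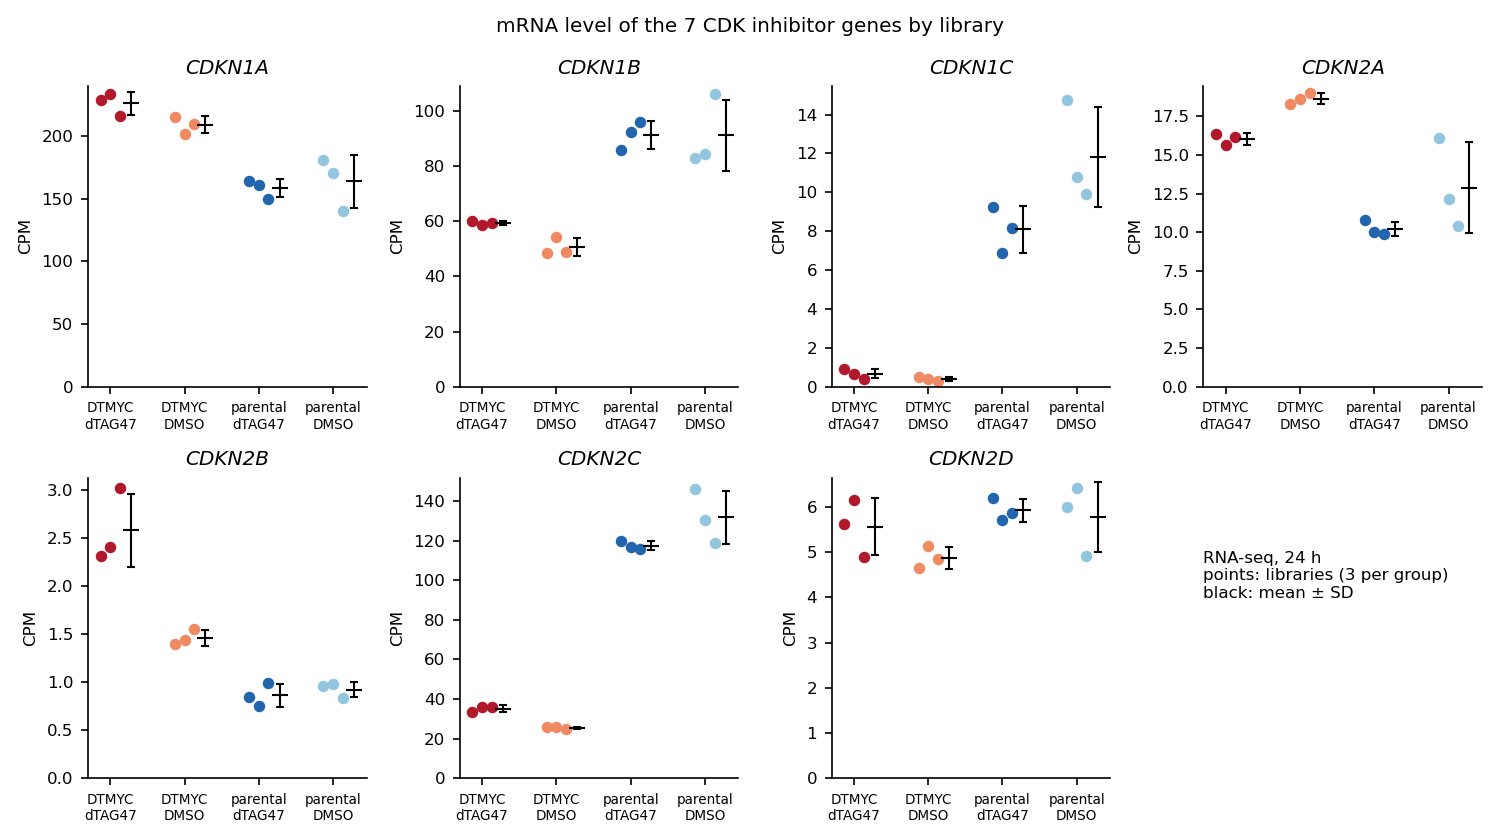
mRNA level in CPM (y axes, each from 0) of the 7 genes in the 12 RNA-seq libraries, with the mean and SD of each group beside its points. In CDKN2B and CDKN2C the 3 DTMYC dTAG47 libraries lie above the 3 DTMYC DMSO libraries, and CDKN1C reaches at most 0.897 CPM in DTMYC cells.

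The parental cells show what dTAG47 does where MYC carries no degradable tag. No member passed the threshold there, against 0.127% of genes tested (0.0224% called lower), and 2 members, CDKN1C and CDKN2A, had an unadjusted p under 0.05; DESeq2 also called 0 members. CDKN2B had 0.850, 0.751 and 0.989 CPM in dTAG47 and 0.960, 0.976 and 0.832 CPM in DMSO, and the groups overlapped (log2 change -0.11 ± 0.18, adjusted p = 0.793). CDKN2C had 120, 117 and 116 CPM in dTAG47 and 146, 130 and 119 CPM in DMSO (-0.17 ± 0.08, adjusted p = 0.351). The highest treated library of CDKN2C lay just above the lowest DMSO library, which was library 3. CDKN1C was the member with the largest fitted change, with 9.26, 6.87 and 8.14 CPM in dTAG47 against 14.7, 10.8 and 9.93 CPM in DMSO (-0.54 ± 0.18, adjusted p = 0.204). Its treated libraries were all lower, as in 6.63% of genes tested, and no member had all treated libraries higher, as 8.73% of genes did. CDKN2A had 10.8, 9.98 and 9.89 CPM in dTAG47 and 16.1, 12.1 and 10.4 CPM in DMSO, with overlap (-0.33 ± 0.13, adjusted p = 0.259).

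CDKN1A had 164, 161 and 150 CPM in dTAG47 and 181, 170 and 140 CPM in DMSO, CDKN1B 85.8, 92.2 and 95.9 CPM and 82.8, 84.4 and 106 CPM, and CDKN2D 6.20, 5.70 and 5.87 CPM and 5.999, 6.42 and 4.91 CPM in the same order of groups. All 3 overlapped, and their fitted log2 changes lay between -0.05 and 0.04. Without parental DMSO library 3, 2718 genes were called in parental cells, against 17 with it, and 3 members were then called lower: CDKN1C (-0.65, adjusted p = 0.00383), CDKN2A (-0.47, adjusted p = 0.00322) and CDKN2C (-0.24, adjusted p = 0.0123).

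The difference between the DTMYC and the parental response was tested directly as an interaction. CDKN2C was the single member called, with a difference of 0.63 ± 0.12 on the log2 scale (adjusted p = 0.0351), against 1.19% of genes tested in either direction and 0.597% in its direction. Its fitted responses were 0.47 in DTMYC cells and -0.17 in parental cells. CDKN2B had a larger difference with more error, 0.92 ± 0.24 (adjusted p = 0.0773), and CDKN1C had 1.24 ± 0.40 (adjusted p = 0.127). For CDKN1A, CDKN1B, CDKN2A and CDKN2D the differences lay between 0.12 and 0.23, with adjusted p from 0.395 to 0.759. The median difference over all genes was 0.08. The CDKN2C call was lost when any 1 of the 9 libraries of DTMYC dTAG47, DTMYC DMSO and parental dTAG47 was left out (adjusted p from 0.0819 to 0.119) and under DESeq2-type size factors in edgeR (adjusted p = 0.0545). Without parental DMSO library 3, CDKN2B and CDKN1C joined it (adjusted p = 0.0237 each).

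**Figure D2:**
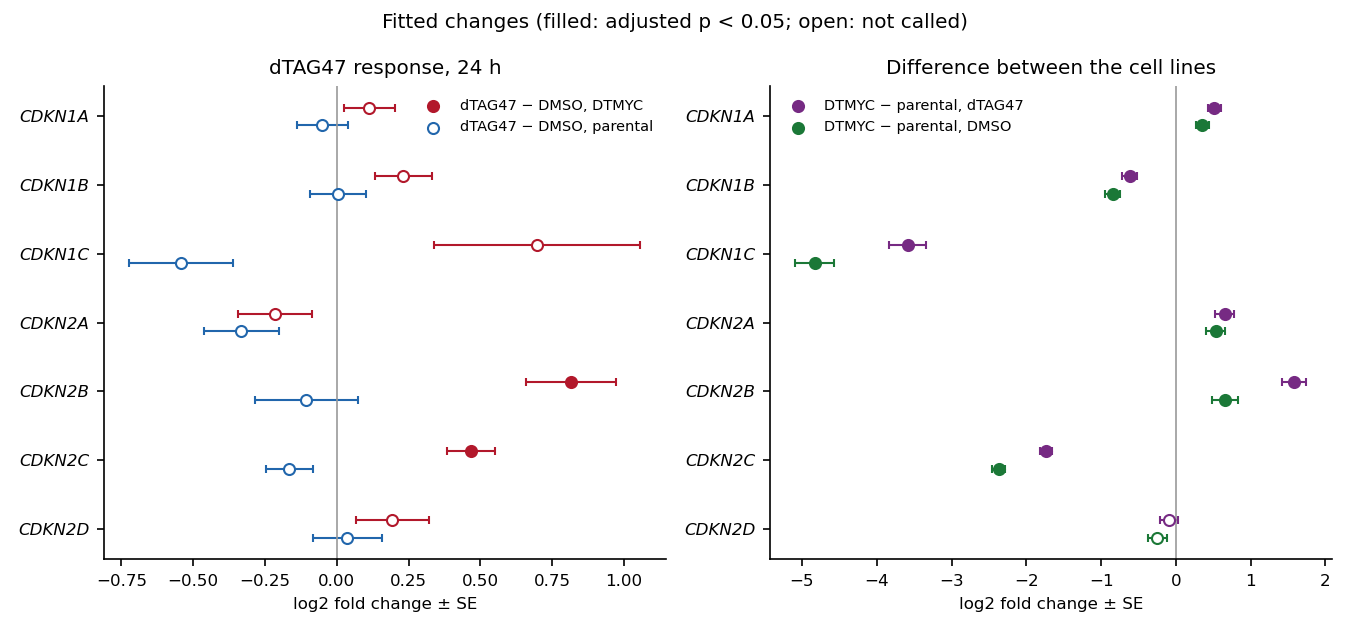
Fitted log2 fold changes with SE (x axes) for the 7 genes (rows), for dTAG47 against DMSO in DTMYC and in parental cells (left) and for DTMYC against parental cells in dTAG47 and in DMSO (right); filled points passed an adjusted p of 0.05. On the left only CDKN2B and CDKN2C in DTMYC cells are filled, at 0.82 and 0.47, and on the right CDKN1C lies at -3.59 and -4.83.

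Against parental cells, both in DMSO, DTMYC cells had lower CDKN1C, CDKN2C and CDKN1B mRNA and higher CDKN2B, CDKN2A and CDKN1A mRNA, so that 6 of 7 members were called, where 73.3% of all genes tested were called. CDKN1C averaged 0.414 ± 0.100 CPM in DTMYC DMSO cells and 11.8 ± 2.57 CPM in parental DMSO cells (SD, n = 3 each), a log2 difference of -4.83 ± 0.26 or 28.4-fold lower (adjusted p = 6.67e-09). CDKN2C averaged 25.4 ± 0.599 CPM and 131.6 ± 13.5 CPM in the same groups, 5.17-fold lower in DTMYC cells (-2.37 ± 0.09, adjusted p = 1.93e-10). The rise of CDKN2C with dTAG47 to 35.1 ± 1.67 CPM left it well below the parental level. CDKN1B differed by -0.85 ± 0.10 (adjusted p = 8.28e-06).

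CDKN2B was higher in DTMYC DMSO cells by 0.66 ± 0.17 on the log2 scale (adjusted p = 0.00389), CDKN2A by 0.53 ± 0.13 (adjusted p = 0.00251) and CDKN1A by 0.35 ± 0.09 (adjusted p = 0.00331). CDKN2D, at -0.25 ± 0.12, was not called (adjusted p = 0.0887), but passed without parental DMSO library 3 (-0.37, adjusted p = 0.0086). In dTAG47 the same 6 members were called with the same signs, against 76.4% of genes in either direction and 38.9% called lower: CDKN1C at -3.59, CDKN2C at -1.74, CDKN1B at -0.62, CDKN1A at 0.51, CDKN2A at 0.65 and CDKN2B at 1.58. The 3 lower members had all DTMYC libraries below all parental ones in dTAG47, as did 43.1% of genes. The lines differ in MYC source, MYC mRNA level, editing and viral transduction, and these cannot be told apart here.

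On a scale per length (RPKM, CPM per kilobase of the entry length in the table), CDKN1A led in every group. The entry length was 4400 bases for CDKN2A, whose entry joins several transcripts, 3318 for CDKN2C and 1503 for CDKN2D. The order of genes, the sums and the shares depend on these lengths, and no other length was tried. In DTMYC dTAG47 cells the order of mean RPKM was CDKN1A at 75.7, CDKN1B at 21.1, CDKN2C at 10.6, CDKN2D at 3.70, CDKN2A at 3.65, CDKN2B at 0.636 and CDKN1C at 0.259. Only the library ranges of CDKN2D and CDKN2A overlapped among neighbours in this order. In DTMYC DMSO cells the order was CDKN1A at 70.0, CDKN1B at 18.0, CDKN2C at 7.67, CDKN2A at 4.24, CDKN2D at 3.24, CDKN2B at 0.360 and CDKN1C at 0.160 RPKM, with no overlap between neighbours.

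In parental dTAG47 cells CDKN2C came second, with CDKN1A at 52.98, CDKN2C at 35.4, CDKN1B at 32.5, CDKN2D at 3.94, CDKN1C at 3.13, CDKN2A at 2.32 and CDKN2B at 0.213 RPKM, again with no overlap between neighbours. In parental DMSO cells CDKN1A was at 54.9, CDKN2C at 39.7, CDKN1B at 32.4, CDKN1C at 4.57, CDKN2D at 3.84, CDKN2A at 2.93 and CDKN2B at 0.227 RPKM. There CDKN2C overlapped CDKN1B, and CDKN2D overlapped both CDKN1C and CDKN2A.

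On this scale, which rests on the entry lengths, the summed INK4 level was lower in DTMYC than in parental cells. CDKN2C was its largest part in every group. Summed over the 4 INK4 genes, the level was 18.6 ± 0.528 RPKM in DTMYC dTAG47 and 15.5 ± 0.256 RPKM in DTMYC DMSO cells, against 41.9 ± 0.910 RPKM in parental dTAG47 and 46.7 ± 5.09 RPKM in parental DMSO cells (SD, n = 3 each). CDKN2C made up 57.01% and 49.5% of it in the DTMYC groups (dTAG47 and DMSO) and 84.5% and 85.0% in the parental groups (dTAG47 and DMSO). CDKN2B made up 3.42% and 2.32% in the DTMYC groups and 0.509% and 0.489% in the parental ones. The CIP/KIP sum was 97.1 ± 3.03 RPKM in DTMYC dTAG47, 88.2 ± 1.28 RPKM in DTMYC DMSO, 88.6 ± 0.957 RPKM in parental dTAG47 and 91.8 ± 3.65 RPKM in parental DMSO cells. In DTMYC cells all dTAG47 libraries (93.7 to 99.4 RPKM) lay above all DMSO libraries (87.1 to 89.6 RPKM). CDKN1A supplied 78.0% and 79.4% of it in the DTMYC groups, against 59.8% and 59.6% in the parental groups. These sums were not tested.

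**Figure D3:**
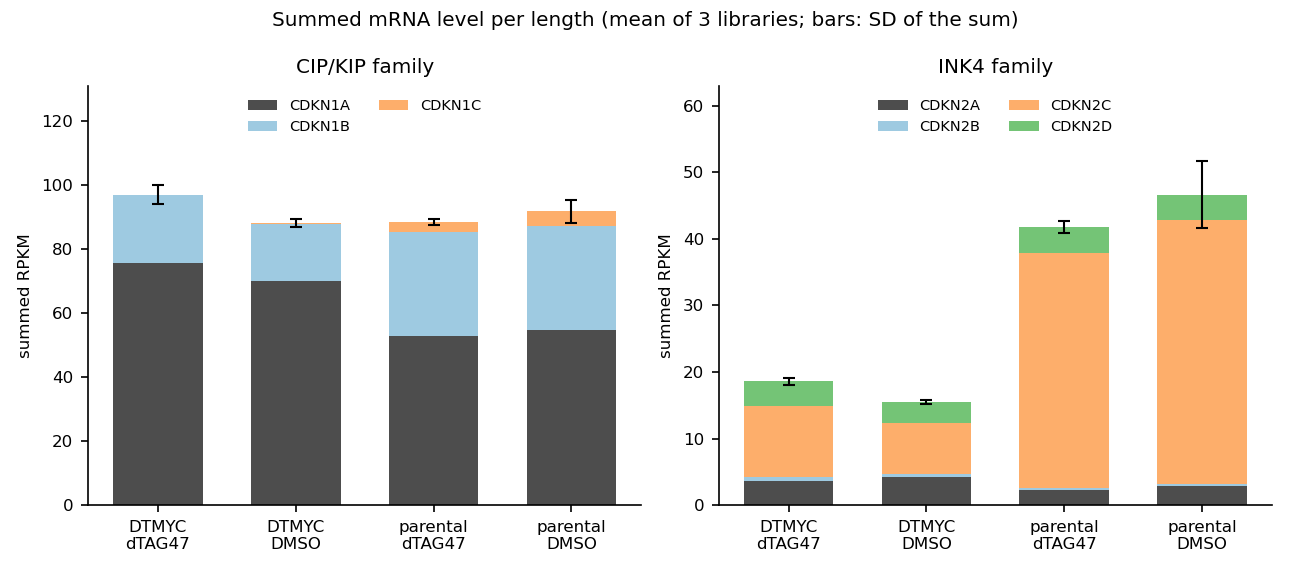
Summed mRNA level per length in RPKM (y axes, from 0) of the CIP/KIP genes (left) and the INK4 genes (right) in the 4 groups, as means of 3 libraries stacked by gene, with the SD of the sum. The INK4 bars are 18.6 and 15.5 RPKM in DTMYC cells and 41.9 and 46.7 RPKM in parental cells, where CDKN2C fills most of the bar.

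PRO-seq, which counts engaged RNA polymerases, asks whether transcription of these genes had moved by 4 h. It gave no called member in gene bodies or promoter-proximal regions, and no called gene at all (0% of 13397 gene body and 10226 promoter-proximal entries tested). In edgeR 1298 gene bodies and 661 promoter-proximal regions had an unadjusted p under 0.05, and DESeq2 called 67 and 2 entries. CDKN1B, with 800 and 718 gene body counts in dTAG47 and 744 and 717 in DMSO, was the single member whose scaled gene body levels did not overlap, at 37.6 and 39.6 CPM in dTAG47 against 32.5 and 35.9 CPM in DMSO (log2 change 0.18 ± 0.11, adjusted p = 0.668). With the library number as a replicate block, which the labels do not tie to a shared batch, CDKN1B passed (0.18, adjusted p = 0.0353), as did 4360 of all gene bodies. Such separation, all higher, occurred in 20.6% of gene bodies tested. CDKN2C had 30.6 and 30.8 CPM in dTAG47 and 31.0 and 26.7 CPM in DMSO (0.09 ± 0.12, adjusted p = 0.870). CDKN2B had only 14 and 8 gene body counts in dTAG47 and 17 and 7 in DMSO, and the SE of its log2 change was 0.59. CDKN1A followed the library number rather than the treatment, with 126 and 203 CPM in dTAG47 and 120 and 196 CPM in DMSO for libraries 1 and 2.

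Promoter-proximal counts were higher after dTAG47 in both libraries for CDKN2A and CDKN2D, as in 17.8% of regions tested. CDKN2A had 26 and 22 counts in dTAG47 and 14 and 20 in DMSO (log2 change 0.81 ± 0.36, unadjusted p = 0.0366, adjusted p = 0.750, edgeR). The region belongs to the p14ARF start, since the PRO-seq entry uses that transcript. CDKN2D had 62 and 59 counts in dTAG47 and 52 and 49 in DMSO (0.58 ± 0.26, unadjusted p = 0.0381, adjusted p = 0.751). CDKN2B had 33 and 35 promoter-proximal counts in dTAG47 and 41 and 30 in DMSO, and CDKN2C had 60 and 72 in dTAG47 and 85 and 63 in DMSO, and both overlapped as scaled levels. CDKN1C, with 8 and 8 promoter-proximal counts in dTAG47 and 5 and 6 in DMSO and at most 3 gene body counts, did not pass the filter on low counts.

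CDKN2B stood out for the position of its polymerases. Its ratio of promoter-proximal counts to gene body counts per kilobase was 12.8 and 23.7 in dTAG47 and 13.1 and 23.2 in DMSO, at the 96.3 and 97.4 percentile and the 95.3 and 97.2 percentile of 12614 to 12767 entries per library. These CDKN2B ratios rest on few gene body counts, 14 and 8 in dTAG47 and 17 and 7 in DMSO, so their size is imprecise. The median entry had 1.21 and 1.61 in dTAG47 and 1.44 and 1.72 in DMSO. Among the members with at least 20 promoter-proximal and gene body counts together in a library, CDKN2A came next at 3.04 and 2.53 in dTAG47 and 1.72 and 2.11 in DMSO, whereas CDKN1A, CDKN1B, CDKN2C and CDKN2D stayed below the median entry in every library. CDKN2B lies wholly within the span of its antisense transcript CDKN2B-AS1, which had 170 and 219 gene body counts in dTAG47 and 150 and 193 in DMSO. The strand setting of the counting is not given in the sources at hand, so reads of the partners cannot be told apart, in RNA-seq as well. CDKN2A and CDKN2B are closely similar over part of their sequence, and reads there could be assigned to either. No pausing change was called (0% of 10129 entries, 160 at an unadjusted p under 0.05). The share of promoter-proximal counts relative to gene body counts varied from 5.66% to 8.42% between libraries, and its part in the pausing test was not tested.

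Per length, gene body levels in DTMYC cells were led by CDKN1A, CDKN1B and CDKN2C in that order in every library, as mRNA levels were. CDKN1A had 12.7 and 20.5 RPKM in dTAG47 and 12.1 and 19.9 RPKM in DMSO, CDKN1B 9.39 and 9.90 RPKM and 8.11 and 8.97 RPKM, and CDKN2C 6.19 and 6.23 RPKM and 6.27 and 5.41 RPKM. CDKN2D followed at 3.81 and 3.16 RPKM in dTAG47 and 2.33 and 3.50 RPKM in DMSO. CDKN2A had 0.402 and 0.480 RPKM in dTAG47 and 0.356 and 0.475 RPKM in DMSO, below CDKN2D in every library. Their mRNA levels per entry length were near each other. The CDKN2A entry spans the locus from the p14ARF start. CDKN2B and CDKN1C were lowest, CDKN2B at 0.122 and 0.0816 RPKM in dTAG47 and 0.137 and 0.0648 RPKM in DMSO.

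MYC peaks were called at few of these genes, near the share over all genes. The authors called peaks in each library alone, and a gene was counted when a peak came within 1000 bases of an annotated start site. None of the 7 members had a peak in the 3 dTAG47 libraries, where 1.68%, 0% and 0.651% of 19807 genes had one, and 1 of 7 had a peak in each DMSO library, where 16.6% and 6.86% of genes did. In DMSO library 1 it was CDKN2C, with a peak at chr1:51433723-51434231, which overlaps the promoter sequence shown above. Its score of 17 (the authors' value, taken to be the -log10 q value multiplied by 10) was at the 2.06 percentile of that list. In DMSO library 3 it was CDKN1B, with a peak at chr12:12870053-12870654 and a score of 26. Neither recurred in the other DMSO library. CDKN2B had no MYC peak within 25000 bases in any library, and the nearest in DMSO libraries 1 and 3 lay 205854 and 206055 bases away, at the start of MTAP.

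Both DMSO libraries had MYC peaks beside the neighbours of 2 members. A peak with scores of 53 and 44 lay 7011 and 6594 bases from the CDKN1B start, next to the start of APOLD1, an endothelial early response gene whose entry begins 3546 bases past CDKN1B. APOLD1 mRNA averaged 10.9 ± 0.62 CPM in dTAG47 and 5.32 ± 0.31 CPM in DMSO in DTMYC cells (SD, n = 3 each) and was called higher (1.03 ± 0.16, adjusted p = 0.00321). In parental cells, whose MYC carries no degradable tag, APOLD1 was also higher in all dTAG47 libraries, at 35.3, 42.6 and 40.1 CPM against 25.4, 22.6 and 35.2 CPM in DMSO, without passing the threshold (0.50 ± 0.14, adjusted p = 0.143), and the difference between the lines was not called (adjusted p = 0.201). A peak with scores of 36 and 17 lay 3220 and 3257 bases from the CDKN2D start, at the start of KRI1, a gene known from yeast for a role in ribosome biogenesis, 425 bases from CDKN2D. KRI1 mRNA averaged 33.4 ± 1.3 CPM in dTAG47 and 44.8 ± 1.4 CPM in DMSO and was called lower (-0.42 ± 0.08, adjusted p = 0.00729). MTAP, the methylthioadenosine phosphorylase gene next to CDKN2A, was not called in this comparison (-0.38 ± 0.12, adjusted p = 0.0634). FAF1, which begins 482 bases from CDKN2C on the other strand, was at 0.02 ± 0.07 (adjusted p = 0.906). The remaining neighbours, SRSF3, CPNE5, GPR19, TRPM5, SLC22A18AS, TUSC1, RNF11 and AP1M2, were not called either.

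ATAC-seq peaks, which mark open chromatin, were called at the promoters of 6 members in all 6 DTMYC libraries, where 59.2% to 66.0% of all genes had one. CDKN2B had a single peak over its start in every library, with scores of 640, 381 and 660 in dTAG47 and 948, 538 and 440 in DMSO. Within their own lists these lay between the 95.2 and the 98.5 percentile, although CDKN2B had the lowest mRNA level per length of the INK4 genes. CDKN2C had 2 peaks, one covering the FAF1 start and reaching to within 42 bases of the first CDKN2C start or over it, and one over its second start, and the stronger of them lay between the 92.1 and the 97.7 percentile. CDKN2A had peaks both at the p14ARF start and at the p16INK4a start in every library. CDKN1A had a peak over its downstream start sites in every library. CDKN1C, the member nearly silent in DTMYC cells, had a peak within 1000 bases in dTAG47 library 2 (score 33) and in DMSO libraries 1 and 2 (scores 37 and 28), but not in the others. The lists differ in length, from 28429 to 50983 peaks, so scores and percentiles show the order within a list and no change between libraries.

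**Figure D4:**
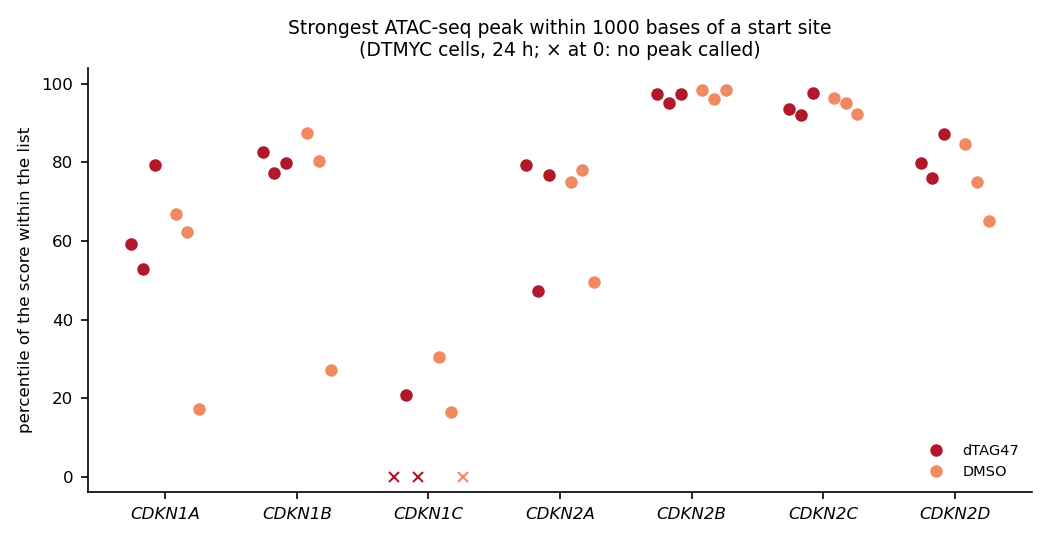
Percentile, within its own peak list, of the score of the strongest ATAC-seq peak within 1000 bases of a start site (y axis) for the 7 genes in DTMYC cells, 3 dTAG47 libraries left of 3 DMSO libraries, with a cross at 0 where none was called. CDKN2B and CDKN2C lie above the 92 percentile in every list, and CDKN1C has a peak in 3 of 6.

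Around the members, the pathway lists held 0 to 2 called genes each in DTMYC cells after dTAG47, to be read against the 8.71% of all tested genes called (4.27% higher and 4.44% lower), and no list was tested as a set. Among 14 tested cyclins, kinases and their activator, 1 fell: CDC25A, the phosphatase that activates CDK2, averaged 81.8 ± 1.7 CPM in dTAG47 and 102.7 ± 1.1 CPM in DMSO (-0.33 ± 0.08, adjusted p = 0.0206). Of 19 entries of the RB, E2F and DREAM list, 2 fell, namely TFDP1, the dimer partner of E2F proteins (-0.42 ± 0.08, adjusted p = 0.00988), and E2F4, the repressive E2F of quiescent cells (-0.36 ± 0.09, adjusted p = 0.0239). Of 14 cofactors of MYC repression and MAX partners 2 fell, MAX (-0.30 ± 0.07, adjusted p = 0.0216) and the MYC antagonist MXI1 (-0.54 ± 0.13, adjusted p = 0.0242). ZBTB17, which encodes MIZ1, was at -0.05 ± 0.09 (adjusted p = 0.780). Of 13 Polycomb and SWI/SNF genes 1 rose: CBX7, a Polycomb reader known to repress the INK4 locus, averaged 8.96 ± 0.30 CPM in dTAG47 and 6.66 ± 0.38 CPM in DMSO (0.43 ± 0.09, adjusted p = 0.0111). None of the list genes called here was called in parental cells or in the interaction. MNT, on the same list as MAX, was the single pathway gene called in the interaction. It was lower there, as 0.59% of genes tested were.

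At 8.71% called over all genes, 0 calls in lists of this size is near the background. None of 12 tested TGF-beta, SMAD and FOXO genes passed, with SMAD3 and SMAD2, the most abundant by mean over all 12 libraries, at 0.12 ± 0.07 (adjusted p = 0.364) and 0.14 ± 0.15 (adjusted p = 0.636). None of 13 genes of the degradation of p21, p27 and p57 passed, with DDB1 at -0.12 ± 0.07 (adjusted p = 0.370) and CDC20 at -0.16 ± 0.08 (adjusted p = 0.277). None of 10 genes of the p53 axis passed, with CCNG1 at -0.13 ± 0.10 (adjusted p = 0.464) and MDM2 at -0.02 ± 0.27 (adjusted p = 0.978). In parental cells CCNG1 was called lower, with 165, 164 and 174 CPM in dTAG47 and 279, 213 and 272 CPM in DMSO. There 0.0224% of all genes tested were called lower. The kinases that INK4 proteins bind, and the cyclin D genes CCND1 and CCND2, differed between the lines in DMSO. In that comparison 73.3% of all genes tested were called. These genes were chosen after their values were seen. CDK6 was higher in DTMYC than in parental cells in DMSO (2.998 ± 0.24, adjusted p = 2.38e-07), and CDK4 was lower (-0.61 ± 0.08, adjusted p = 2.63e-05). CCND2 averaged 1.55 ± 0.11 CPM in DTMYC DMSO and 455 ± 78 CPM in parental DMSO cells. CCND1 went the other way, with 469, 500 and 479 CPM in DTMYC DMSO and 288, 261 and 255 CPM in parental DMSO cells. The remaining cyclin D gene, CCND3, was not called.

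Across the 12 RNA-seq libraries, the genes whose log2 CPM followed CDKN2B most closely were TMEM178A (Pearson r = 0.976), FAM114A1 (0.963) and PQLC3 (0.961). For CDKN2C they were SFXN3 (0.998), ADARB1 (0.998) and PRKCDBP (0.997). The 12 points fall into 2 cell lines that differ for most genes, and the correlations were not computed within a line. Only genes with a mean of at least 5 CPM were considered, and the correlations are a description.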

How the data were processed

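The authors deposited raw read counts per gene for RNA-seq, and raw read counts for promoter-proximal regions and gene bodies for PRO-seq, both as whole numbers. The deposited PRO-seq table also holds a gene body density, the gene body count divided by a length in bases. The authors deposited ChIP-seq and ATAC-seq peak lists per library with a score, taken to be 10 times the −log10 q value. Per the submitters' processing notes the build was hg19 and the tools included cutadapt, Bowtie2, STAR, featureCounts, MACS2, DiffBind and DESeq2. The role and version of each tool and the extent of the promoter-proximal region are not stated. The labels name MYC as the antibody, and the peak lists are named for HA. The IgG samples were not analysed here.

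Tests on counts used R 4.3.3 with edgeR 4.0.16 (filterByExpr, TMM, two-sided quasi-likelihood test, Benjamini-Hochberg adjustment over all entries, threshold 0.05). All 12 RNA-seq libraries entered 1 fit, and the 4 PRO-seq libraries another for each region. For pausing, both regions entered 1 fit with a term per library, and the change of the promoter-proximal against the gene body count with treatment was tested. CPM and RPKM use effective library sizes, and log2 CPM a prior count of 2. Alternatives used DESeq2 1.42.0, RLE factors, no filter, a replicate block, only the groups compared, and each library left out. Scripts were tested on simulated data. Peaks were matched to GENCODE v44 start sites on GRCh37 within 1000 bases. The members, gene lists and tests were chosen with earlier results of these data known. Genes named besides the members are MYC, SMARCB1, the nearest tested neighbours, up to 4 called genes per list (or the 2 most abundant), and the 3 genes most like CDKN2B and CDKN2C. ZBTB17, MNT, CDK4, CDK6, CCND1, CCND2, CCND3 and CDKN2B-AS1 were added after their values were seen. The promoter sequence of 1 member is not reported here.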

Additional observations from a re-analysis of the deposited data

Results flagged for a closer look

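The response of CDKN2C to dTAG47 was called different between the lines in the main fit. The test of the difference itself gave 0.63 on the log2 scale (DTMYC minus parental response, adjusted p = 0.0351, edgeR interaction). All 3 dTAG47 libraries were above all 3 DMSO libraries in DTMYC cells, whereas the parental groups overlapped only through DMSO library 3. Without that library CDKN2C was called lower in parental cells (adjusted p = 0.0123, edgeR). The adjusted p ranged from 0.000108 to 0.119 over 17 alternatives, and the difference from 0.55 to 0.68. The call was lost in 9 of the 12 fits that left out 1 library, and with RLE factors.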

How the results depend on the processing

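No called value changed sign in any of 755 alternative values over 53 combinations of member and comparison: 733 kept their side of the threshold, 10 lost the call (all for CDKN2C in the interaction) and 12 gained one. The count of genes called in DTMYC cells after dTAG47 was 1167, and 4593 with 4 members when only the groups compared were fitted. For parental cells 17 genes became 7 with RLE, 310 with DESeq2, 0 with only the groups compared and 5 with the replicate block. For the interaction 159 became 63 with RLE (0 members), 555 with DESeq2 (2 members, with CDKN1C), 102 with no filter and 79 with the replicate block. In PRO-seq gene bodies 0 became 67 with DESeq2, 2 with no filter and 4360 with the replicate block (1 member, CDKN1B, 0.18, adjusted p = 0.0353). In promoter-proximal regions 0 became 2 with DESeq2, 2 with no filter and 262 with the replicate block. The cause was not tested. With a window of 5000 bases 2 members had a MYC peak in each DMSO library, and with a score of at least 50, 0.

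Leaving out 1 library gave 329 to 3951 genes and 2 to 4 members in DTMYC cells, 0 to 2718 genes and 0 to 3 members in parental cells, 5 to 2417 genes and 0 to 3 members in the interaction, 5 to 44 PRO-seq gene bodies and 1 to 5 promoter-proximal regions. The upper ends of the RNA-seq ranges come without parental DMSO library 3. Same-numbered RNA-seq libraries did not deviate together in every pair, so the replicate block was not used for the main results. Same-numbered PRO-seq libraries did deviate together (r = 0.639, against -0.639 for unlike numbers). The values are equal in both pairs by construction, but their sign and size are not. The labels do not tie the numbers to a shared batch, and the block was left out there too. The 0 gene bodies and promoter-proximal regions called in the main PRO-seq fits do not hold with the block. The block changed no other member's call. CDKN1C in DTMYC cells, with 11 to 26 RNA-seq counts, and CDKN2B gene bodies, with 7 to 17 counts, are limited by depth.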
